A study of Mus musculus with 24 samples.

Results

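The mevalonate pathway enzymes up to squalene were followed in the livers of mice fed diets rich in trans, cis-unsaturated or saturated fat. They comprise 7 genes of the 18820 that have a probe set of their own on the array: *Hmgcs1*, *Mvk*, *Pmvk*, *Mvd*, *Idi1*, *Fdps* and *Fdft1*. They were chosen by gene symbol, from probe sets listed for a single gene, and each gene is given by its probe set with the highest mean. The livers came from 24 male C57Bl/6 mice aged 4 to 6 months, 8 on each diet, and every mouse had an array of its own. Soy oil that had been partially hydrogenated supplied the fat of the Trans group, while Cis mice ate canola with palm olein and Saturated mice cocoa butter. All 3 diets gave 45% of their energy as fat for 7 weeks, so that the Saturated group is a comparison diet and not a low-fat control, and the diets differ in fat source as a whole.

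The mevalonate pathway turns acetyl units into isoprene units, and from these the liver makes squalene and then cholesterol. *Hmgcs1* encodes the cytosolic HMG-CoA synthase, which makes the precursor that is reduced to mevalonate. *Mvk* and *Pmvk* encode the kinases that add phosphate to mevalonate, and *Mvd* the decarboxylase that yields isopentenyl diphosphate. *Idi1* encodes the isomerase of that product, *Fdps* the synthase of farnesyl diphosphate, and *Fdft1* squalene synthase, the first enzyme committed to sterols. Transcription of this pathway is known to be driven by SREBP2, which is released from the endoplasmic reticulum when membrane cholesterol is low and binds sterol regulatory elements together with NF-Y and Sp1.

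The sequences before the starts of these genes show where such elements can be looked for. Promoter sequences from RefSeq (GRCm38.p6) matched 5 of the 7 genes: *Hmgcs1*, *Mvk*, *Pmvk*, *Mvd* and *Idi1*. These 5 genes had 6 promoters, as *Pmvk* had a further promoter at a later start. The 250 bases before each start were searched on both strands for TCACNCCA, a form of the sterol regulatory element, for TCACACGAG, for CCAAT, the core of the NF-Y site, and for GGGCGG, the core of the Sp1 site. The windows of *Hmgcs1* (chr13:119690101-119690350, plus strand), *Mvk* (chr5:114444019-114444268, plus strand), *Mvd* (chr8:122443423-122443672, minus strand) and *Idi1* (chr13:8885356-8885605, plus strand) are printed 5′ to 3′, since each holds more than 1 of these motifs. Capitals mark CCAAT, its reverse complement ATTGG, and the match to TCACNCCA.
Hmgcs1: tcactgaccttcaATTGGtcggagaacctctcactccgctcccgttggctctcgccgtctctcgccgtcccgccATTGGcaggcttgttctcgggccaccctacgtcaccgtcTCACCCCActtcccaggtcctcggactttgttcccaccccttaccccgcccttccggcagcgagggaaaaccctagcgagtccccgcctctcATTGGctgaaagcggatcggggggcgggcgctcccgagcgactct
Mvk: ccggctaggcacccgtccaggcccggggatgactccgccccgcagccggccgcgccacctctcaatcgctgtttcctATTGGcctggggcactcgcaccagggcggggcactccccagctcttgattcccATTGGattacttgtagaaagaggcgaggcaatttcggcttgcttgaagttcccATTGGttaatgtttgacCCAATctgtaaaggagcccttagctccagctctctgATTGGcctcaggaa
Mvd: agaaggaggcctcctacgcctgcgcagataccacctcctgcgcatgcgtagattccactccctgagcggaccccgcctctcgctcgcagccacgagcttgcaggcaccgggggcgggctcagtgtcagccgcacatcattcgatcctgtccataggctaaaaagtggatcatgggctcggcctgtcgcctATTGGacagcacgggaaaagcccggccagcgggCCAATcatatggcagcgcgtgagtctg
Idi1: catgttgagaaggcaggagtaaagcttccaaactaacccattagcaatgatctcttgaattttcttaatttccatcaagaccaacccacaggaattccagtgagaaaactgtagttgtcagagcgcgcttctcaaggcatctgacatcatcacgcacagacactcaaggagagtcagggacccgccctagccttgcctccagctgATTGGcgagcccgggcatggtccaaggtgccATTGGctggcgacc

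CCAAT was found in all 5 genes, with 5 matches in *Mvk*, 3 in *Hmgcs1*, 2 in *Mvd*, 2 in *Idi1* and 1 in *Pmvk*. By promoter it was found in 5 of the 6, since the further promoter of *Pmvk* held none of these motifs. Of all 32851 promoters of this length, 33.8% held CCAAT. TCACNCCA was found in *Hmgcs1*, as TCACCCCA starting 137 bases before the start. That is 1 of the 6 promoters, and 3.67% of all promoters held it. GGGCGG was found in *Hmgcs1*, *Mvk*, *Mvd* and *Idi1*, 4 of the 6 promoters, against 32.7% of all promoters. None of the 5 genes held TCACACGAG, which 0.0548% of all promoters did. None of these matches overlapped another. A match describes letters in the sequence and is not a measured binding site.

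The values are RMA values on the log2 scale, and signals are their antilogs. The 24 arrays had medians between 2.94 and 3.06 on the log2 scale, and each array correlated with the others at a median r of 0.975 to 0.986. Hepatocyte markers, 10 of the 11 listed being measured, had summed signals of 36966 to 40556 in Trans, 37844 to 40807 in Cis and 38290 to 42373 in Saturated livers, with median log2 differences of −0.04 for Trans and −0.03 for Cis minus Saturated. Of the 10 hepatocyte markers, 9 were lower in Trans than in Saturated livers, 2 at an unadjusted p under 0.05. In Cis livers 8 were lower, 1 at that threshold. Saturated replicate 2 stood apart from its diet group: it had the lowest value of the group for 7 of the 7 enzymes, so results are also given for the other 23 livers. Because it was singled out by these same values, leaving it out enlarges each difference to the Saturated diet by construction, and the values and calls without it describe how much rests on 1 liver and lend no further support to a difference. Log2 differences of other cell type markers and of clock genes stand beside the enzyme results, and their part in them was not tested. Smooth muscle markers were higher in Trans than in Saturated livers for 5 of 5 genes (median 0.39, 3 at an unadjusted p under 0.05), and Kupffer cell and macrophage markers were lower for 5 of 7 (median −0.26, 1 at that threshold). The medians for Trans minus Saturated were 0.08 for 8 stellate cell, 0.07 for 6 endothelial, −0.05 for 4 cholangiocyte, −0.12 for 5 lymphocyte, 0.14 for 4 adipocyte and 0.01 for 4 exocrine pancreas markers, and −0.05 for 11 clock genes. Of these, 2 stellate cell markers and 1 endothelial marker were higher and 1 stellate cell marker lower at an unadjusted p under 0.05. For Cis minus Saturated, the medians were 0.02 for smooth muscle, −0.21 for Kupffer cell and macrophage, −0.05 for stellate cell, −0.09 for endothelial, −0.13 for cholangiocyte, −0.13 for lymphocyte, 0.13 for adipocyte and 0.06 for exocrine pancreas markers, and 0.25 for clock genes. In whole liver, fewer cells of a type and less RNA per cell cannot be told apart.

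All 7 enzymes had lower mean mRNA expression in Trans than in Saturated livers, by 1.33-fold (*Mvk*) to 2.28-fold (*Idi1*), and the median log2 difference was −0.75, compared to −0.00014 over all 35556 probe sets. A median near 0 over all probe sets is expected after RMA, which equalizes the distributions of the arrays, and is no test of the enzymes. None of the 7 passed the test over all 24 livers (limma, Benjamini-Hochberg adjusted p under 0.05), at which 3 probe sets, or 0.00844%, did. At an unadjusted p under 0.05, 7 of 7 were lower, where 3.54% of all probe sets were. The 7 enzymes were chosen with earlier results known, were measured in the same livers and varied together (median r of 0.774 within diets). Counts out of 7 are therefore not counts of independent results, here or in the other comparisons. Without Saturated replicate 2, *Idi1* and *Fdft1* passed the adjusted threshold, where 0.045% of all probe sets did, and the median difference was −0.94. Without Trans replicate 4, which had the lowest mean of the Trans group, 0 of 7 passed, and the median difference was −0.69.

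**Figure D1:**
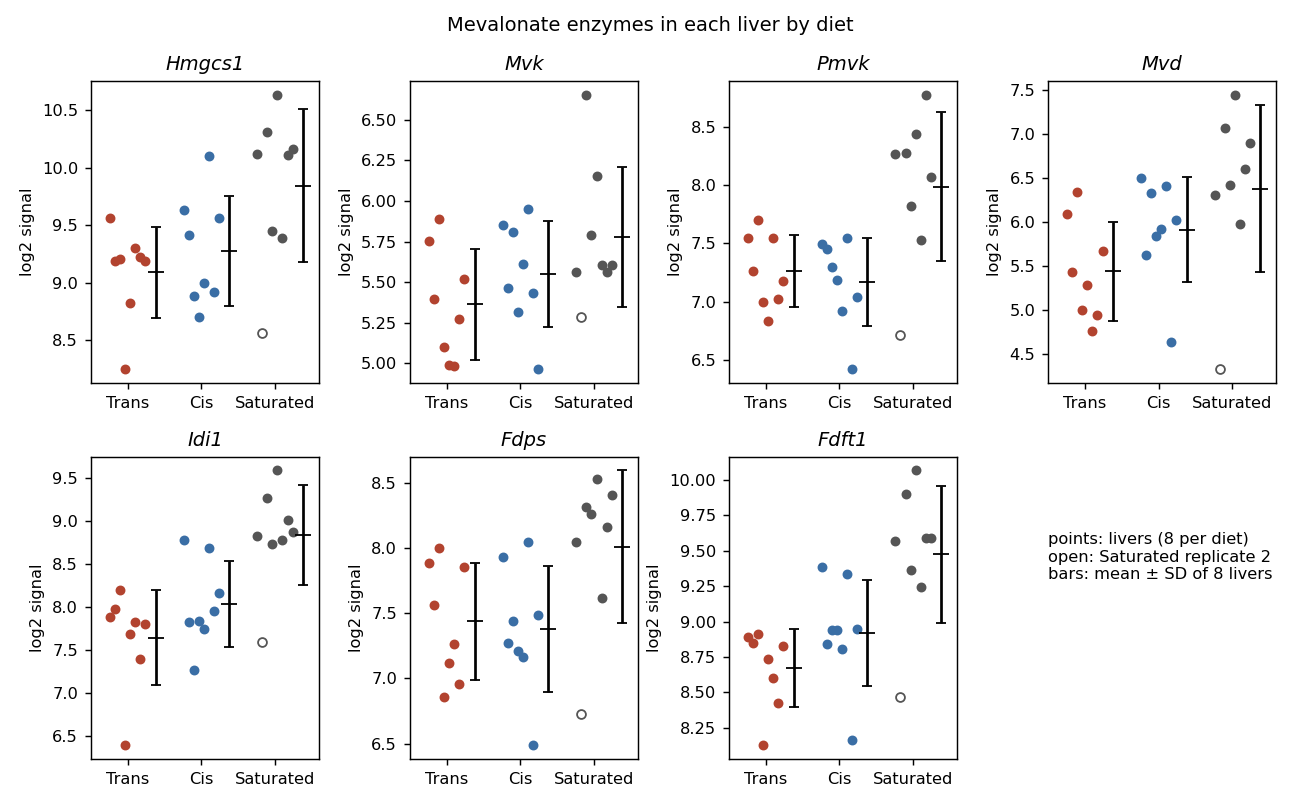
mRNA expression of the 7 mevalonate enzymes in each liver, as log2 signal on the y axis of each panel, for Trans, Cis and Saturated livers. Points are livers, the open point is Saturated replicate 2, and bars give the mean ± SD of the 8 livers; the open point is the lowest Saturated value in each of the 7 panels.

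*Hmgcs1* (chromosome 13, 119690351 to 119708260) opens the cytosolic pathway. Its signal was 303 at the lowest, 586 at the median and 755 at the highest in Trans livers, 415, 597 and 1102 in Cis livers, and 378, 1110 and 1591 in Saturated livers. Trans livers lay below most Saturated livers, while the highest Cis liver was near the Saturated median. The SD on the log2 scale was 0.40 in Trans, 0.48 in Cis and 0.66 in Saturated livers. The log2 difference was −0.75 ± 0.25 (SE, adjusted p = 0.491) for Trans minus Saturated and −0.57 ± 0.25 (adjusted p = 0.726) for Cis minus Saturated. With the lowest Saturated liver then at 672, 7 of 8 Trans livers lay below all Saturated livers when replicate 2 was left out, and the difference was −0.94 (adjusted p = 0.146).

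*Mvk* (chromosome 5, 114444264 to 114460591) and *Pmvk* (chromosome 3, 89454541 to 89469014) encode the kinases of mevalonate and phosphomevalonate. The signal of *Mvk* was 31.7, 40.4 and 59.1 (lowest, median, highest) in Trans livers, 31.2, 46.6 and 61.8 in Cis livers, and 39.1, 48.8 and 100.6 in Saturated livers. The ranges of *Mvk* overlapped widely, and its difference was the smallest of the 7, at −0.41 ± 0.18 (adjusted p = 0.623) for Trans and −0.23 ± 0.18 (adjusted p = 0.872) for Cis minus Saturated. The Cis difference of *Mvk* was −0.10 without Saturated replicate 3 and −0.14 without Cis replicate 8. *Pmvk* had signals of 114, 149 and 208 in Trans livers, 85.4, 151 and 187 in Cis livers, and 105, 289 and 439 in Saturated livers. Apart from Saturated replicate 2, at 105, Saturated livers started at 185 for *Pmvk*, which 5 of 8 Trans livers and 7 of 8 Cis livers did not reach. *Pmvk* differed by −0.73 ± 0.22 (adjusted p = 0.408) for Trans and −0.82 ± 0.22 (adjusted p = 0.502) for Cis minus Saturated, and by −0.91 (adjusted p = 0.075) and −1.002 (adjusted p = 0.0899) without that liver.

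*Mvd* (chromosome 8, 122433596 to 122443422), the decarboxylase that ends the mevalonate part, varied most within diets. Its signal was 27.2, 41.0 and 81.1 (lowest, median, highest) in Trans livers, 24.8, 62.8 and 90.7 in Cis livers, and 19.996, 91.6 and 175 in Saturated livers. The lowest of all 24 livers was thus a Saturated one, replicate 2, and the next lowest Saturated liver had 63.1. The difference of *Mvd* was −0.94 ± 0.34 (adjusted p = 0.545) for Trans minus Saturated and −0.47 ± 0.34 (adjusted p = 0.863) for Cis minus Saturated. It was −1.24 (adjusted p = 0.124) and −0.77 (adjusted p = 0.574) without that liver, and the Cis difference was −0.29 without Cis replicate 7.

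*Idi1* (chromosome 13, 8885606 to 8892396), the isomerase, had the largest difference of the 7 between Trans and Saturated livers. Its signal was 84.3, 225 and 295 (lowest, median, highest) in Trans livers, 155, 238 and 441 in Cis livers, and 193, 463 and 771 in Saturated livers. The 7 Saturated livers other than replicate 2 lay between 427 and 771, above all 8 Trans livers and 7 of 8 Cis livers. *Idi1* differed by −1.19 ± 0.26 (adjusted p = 0.202) for Trans minus Saturated and by −0.80 ± 0.26 (adjusted p = 0.63) for Cis minus Saturated. Without Saturated replicate 2 the Trans difference was −1.37 (adjusted p = 0.0227) and the Cis difference −0.98 (adjusted p = 0.284), whereas without Trans replicate 4 the Trans difference was −1.01 (adjusted p = 0.315). The other probe set of *Idi1* gave −1.25 ± 0.28 (adjusted p = 0.202) for Trans and −0.84 ± 0.28 (adjusted p = 0.63) for Cis minus Saturated. Its paralog *Idi2*, with a mean signal of 3.18, differed by 0.04 ± 0.09 (adjusted p = 0.965) between Trans and Saturated livers.

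*Fdps* (chromosome 3, 89093588 to 89101967) makes farnesyl diphosphate, the branch point between sterols and protein prenylation. Its signal was 116, 171 and 255 (lowest, median, highest) in Trans livers, 89.8, 164 and 264 in Cis livers, and 106, 297 and 369 in Saturated livers. Trans and Cis livers covered nearly the same range. The difference of *Fdps* was −0.57 ± 0.24 (adjusted p = 0.623) for Trans and −0.63 ± 0.24 (adjusted p = 0.67) for Cis minus Saturated, and −0.75 (adjusted p = 0.258) and −0.81 (adjusted p = 0.368) without Saturated replicate 2.

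*Fdft1* (chromosome 14, 63145150 to 63181687), squalene synthase, varied least within the Trans group in log2 terms. Its signal was 280, 440 and 481 (lowest, median, highest) in Trans livers, 288, 491 and 667 in Cis livers, and 355, 765 and 1071 in Saturated livers. All 8 Trans livers lay below the 7 Saturated livers other than replicate 2, which started at 605. The difference was −0.80 ± 0.18 (adjusted p = 0.202) for Trans minus Saturated and −0.55 ± 0.18 (adjusted p = 0.638) for Cis minus Saturated. Without Saturated replicate 2, the Trans difference of *Fdft1* was −0.95 (adjusted p = 0.0196) and the Cis difference −0.70 (adjusted p = 0.196), whereas without Trans replicate 4 the Trans difference was −0.73 (adjusted p = 0.378). A pair of further probe sets is listed for both *Fdft1* and its neighbour *Ctsb*, a lysosomal protease, and they differed by −0.81 ± 0.18 and 0.07 ± 0.07 between Trans and Saturated livers.

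With all livers, the ranges of Trans and Saturated livers overlapped in each of the 7 enzymes (0 of 7 without overlap). Once the lowest Saturated liver of each enzyme, replicate 2, was left out, *Idi1* and *Fdft1* had no overlap (2 of 7, with 0.0816% of all probe sets lower in this way), which this choice of liver favours. Between Cis livers and these Saturated livers, 0 of 7 enzymes had none, with 0.045% of all probe sets lower in this way. In 6 of the 7 enzymes, 8 of 8 Trans livers were below the mean of all 8 Saturated livers, and in *Mvk* 7 of 8 were. No share of all probe sets is given for this position, nor for the overlap with all livers. Those counts therefore only describe the enzymes and cannot be called unusual.

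In Cis livers too, all 7 enzymes had a lower mean than in Saturated livers, from 1.17-fold for *Mvk* to 1.77-fold for *Pmvk*. None passed the adjusted threshold, nor did any other probe set (0%), while 2337 of the 35556 had an unadjusted p under 0.05. At an unadjusted p under 0.05, *Hmgcs1*, *Pmvk*, *Idi1*, *Fdps* and *Fdft1* were lower in Cis livers (5 of 7, against 3.27% of all probe sets). Without Saturated replicate 2, 0 of 7 passed the adjusted threshold, where 0.00844% of all probe sets did. The median log2 difference of the 7 was −0.57 with all livers and −0.77 without that liver. The Cis and Trans comparisons share the 8 Saturated livers and are not independent of each other.

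**Figure D2:**
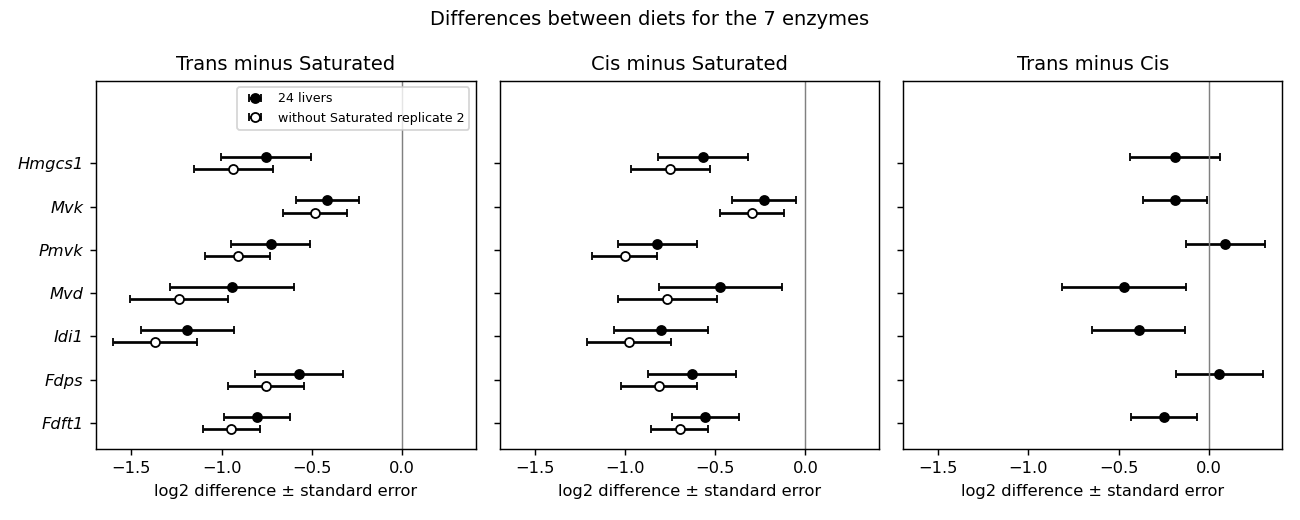
Log2 differences between diets (x axis) with their standard errors for the 7 enzymes, from the limma fit of all 24 livers (filled) and of the 23 livers without Saturated replicate 2 (open). All values lie left of 0 in the panels for Trans minus Saturated and Cis minus Saturated, while for Trans minus Cis *Pmvk* and *Fdps* lie to the right of 0.

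Between the diets with unsaturated fat, no difference was called. The log2 difference for Trans minus Cis was −0.47 for *Mvd* (95% confidence interval −1.18 to 0.24), −0.39 for *Idi1* (−0.92 to 0.15), −0.25 for *Fdft1* (−0.63 to 0.13), −0.19 for *Hmgcs1* (−0.70 to 0.33), −0.19 for *Mvk* (−0.55 to 0.18), 0.06 for *Fdps* (−0.44 to 0.56) and 0.09 for *Pmvk* (−0.36 to 0.55). The intervals reach beyond 0 on both sides and leave room for differences of either direction in each enzyme. Of the 7, 0 were called, where 0.00281% of all probe sets were, and 0 had an unadjusted p under 0.05 with a lower mean in Trans livers, where 3.12% of all probe sets did. When 1 liver was left out, *Pmvk* ran from −0.02 to 0.15 and *Fdps* from −0.07 to 0.15, so that neither had a settled sign.

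Taking both unsaturated diets against the Saturated diet, the log2 difference was −0.995 for *Idi1* (adjusted p = 0.206), −0.77 for *Pmvk* (adjusted p = 0.25), −0.71 for *Mvd* (adjusted p = 0.642), −0.68 for *Fdft1* (adjusted p = 0.216), −0.66 for *Hmgcs1* (adjusted p = 0.487), −0.60 for *Fdps* (adjusted p = 0.532) and −0.32 for *Mvk* (adjusted p = 0.711). None was called, as of all probe sets (0%), of which 2476 had an unadjusted p under 0.05; 7 of 7 were lower at that unadjusted threshold, against 3.55% of all probe sets. With Saturated replicate 2 left out, *Pmvk* was at −0.96 (adjusted p = 0.0173), *Idi1* at −1.17 (adjusted p = 0.0209) and *Fdft1* at −0.82 (adjusted p = 0.0173), where 0.0562% of all probe sets were called, and with Trans replicate 4 or Cis replicate 7 left out instead 0 of 7 were called. *Mvk* was at −0.20 without Saturated replicate 3. Of the 16 livers on unsaturated fat, 15 lay below all Saturated livers other than replicate 2 for *Idi1*, 14 for *Fdft1* and 12 for *Pmvk*. With Saturated replicate 2 kept in, these counts were 3, 3 and 1.

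The 7 enzymes varied together from liver to liver within a diet. With the diet means removed, Pearson's r over the 24 livers was between 0.489 and 0.932 for the 21 pairs, with a median of 0.774, and Spearman's rho was between 0.435 and 0.914. The adjusted p of r ran from 3.5e-05 to 0.0328 and that of rho from 3.5e-05 to 0.0393 (permutation test within diets, 100000 resamples, two-sided, Benjamini-Hochberg over the 21 pairs), and 1e-05 is the smallest unadjusted p these resamples can give. *Mvd* and *Fdps* were the closest pair (r = 0.932, rho = 0.914), followed by *Fdps* and *Fdft1* (r = 0.927, rho = 0.899). *Mvk* stood furthest from the others, with r of 0.489 to *Pmvk* and 0.501 to *Hmgcs1*.

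These correlations lean in part on a few livers. For each pair, the 2 livers farthest from the median of its enzyme that comes earlier in the pathway were left out, and r was then between 0.391 and 0.865. Without Saturated replicate 2, r was between 0.397 and 0.896. Within single diets, the median r of the 21 pairs was 0.647 in Trans, 0.561 in Cis and 0.897 in Saturated livers.

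Averaged over the 7 enzymes and set against the mean of the 7 Saturated livers other than replicate 2, Trans livers were at −1.55 to −0.47 on the log2 scale (median −0.94) and Cis livers at −1.36 to −0.21 (median −0.80). Those Saturated livers were at −0.48 to 0.47, and Saturated replicate 2 was at −1.41, within the range of the Trans livers. At the high end, Trans replicate 3 had the highest Trans value for 6 of the 7 enzymes and Saturated replicate 5 the highest Saturated value for 5. At the low end, each diet had a liver with low values for most of the enzymes. In Trans replicate 4 the enzymes were between −2.62 (*Idi1*) and −0.75 (*Mvk*), in Cis replicate 7 between −2.04 (*Mvd*) and −0.41 (*Mvk*), and in Saturated replicate 2 between −2.35 (*Mvd*) and −0.56 (*Mvk*).

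**Figure D3:**
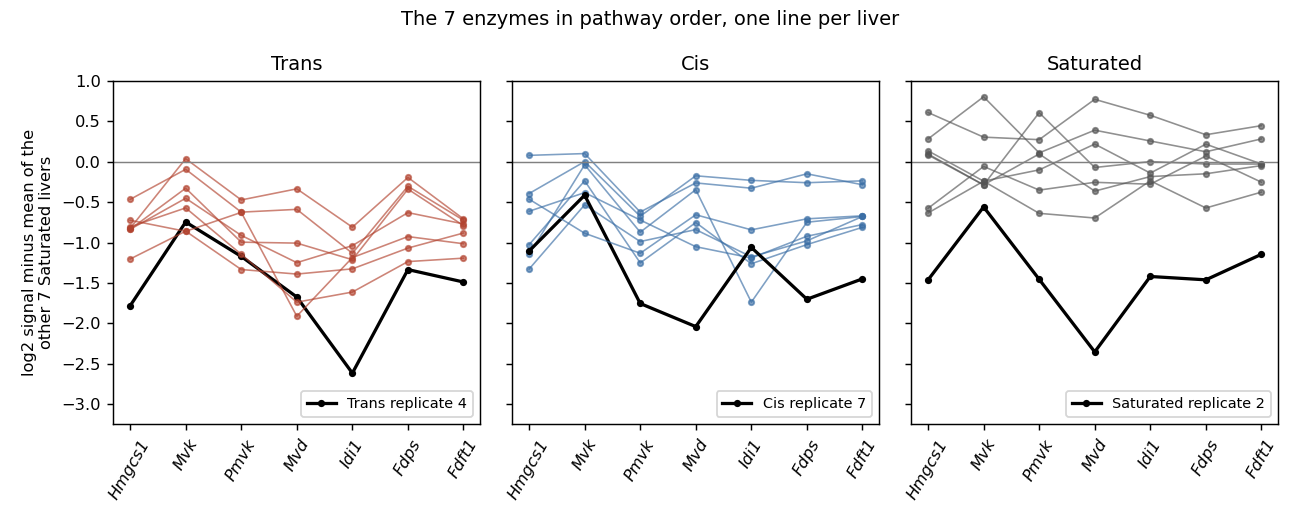
The 7 enzymes in pathway order (x axis) in each liver, as log2 signal minus the mean of the 7 Saturated livers other than replicate 2 (y axis), 1 line per liver. The black lines mark Trans replicate 4, Cis replicate 7 and Saturated replicate 2, whose means over the 7 enzymes were the lowest of their diets.

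On the same scale, genes of fatty acid synthesis averaged −0.70 in Trans replicate 4, −1.15 in Cis replicate 7 and −1.35 in Saturated replicate 2. The other 7 Saturated livers ranged from −0.95 to 0.78 for this list, so Trans replicate 4 lay within their range, and it was not the lowest Trans liver for it. Genes that supply acetyl units averaged −0.85, −1.35 and −1.14 in the same 3 livers, below the −0.67 to 0.53 of the other Saturated livers. Circadian clock genes averaged −0.004, 0.06 and 0.07, and hepatocyte markers −0.12, −0.11 and −0.07. In Trans replicate 4 smooth muscle markers averaged 1.33, adipocyte markers 0.92, cholangiocyte markers 0.48 and lymphocyte markers 0.25, each the highest of the Trans livers, and its array had the lowest median correlation, at 0.975. Cis replicate 7 had the lowest Cis average for stellate cell markers (−0.32), endothelial markers (−0.30) and lymphocyte markers (−0.28), and its Kupffer cell and macrophage markers averaged −0.61. Saturated replicate 2 had the lowest Saturated average for cholangiocyte markers (−0.62, against −0.17 to 0.33 in the others), smooth muscle markers (−0.23) and stellate cell markers (−0.22). Summed signals of the 5 smooth muscle markers were 55.7 to 201 in Trans, 47.0 to 86.3 in Cis and 50.5 to 77.5 in Saturated livers, and those of the 4 adipocyte markers 18.7 to 39.3, 19.7 to 23.4 and 17.5 to 21.9. Their part in the enzyme values was not tested.

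The steps around the 7 enzymes were described by further lists of genes, each by its counts and its median. After squalene, 10 of 10 measured genes on the way to cholesterol were lower in both comparisons, with median log2 differences of −0.69 for Trans and −0.54 for Cis minus Saturated, and 10 and 9 of them had an unadjusted p under 0.05, where 3.54% and 3.27% of all probe sets were lower at that threshold. *Cyp51*, the lanosterol demethylase, differed by −0.92 ± 0.22 between Trans and Saturated livers (adjusted p = 0.221), *Msmo1*, the sterol methyl oxidase, by −0.90 ± 0.22 (adjusted p = 0.254), *Hsd17b7*, the 3-ketosteroid reductase, by −0.64 ± 0.17 (adjusted p = 0.322), and *Tm7sf2*, a sterol reductase, by −0.69 ± 0.15 (adjusted p = 0.202). None of the 10 was called over all 24 livers, and without Saturated replicate 2, 4 of them were for Trans minus Saturated (median −0.85, with 0.045% of all probe sets called) and 0 for Cis minus Saturated (median −0.69). Before the pathway, *Acss2* and *Acly*, which make cytosolic acetyl-CoA from acetate and citrate, differed by −0.48 ± 0.25 and −0.49 ± 0.28 for Trans and by −0.56 ± 0.25 and −0.36 ± 0.28 for Cis minus Saturated. *Slc25a1*, the mitochondrial citrate carrier, differed by −0.09 ± 0.08 for Trans and 0.02 ± 0.08 for Cis minus Saturated, and without Saturated replicate 2 by −0.14 and −0.03, so that its Cis sign turned. Without that liver the Cis difference of *Acly* was −0.57.

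The branches that use farnesyl diphosphate for other products had medians near 0. Of 12 measured genes of prenylation, ubiquinone and dolichol synthesis, 5 were lower and 7 higher in both comparisons, with a median of 0.02. The medians were 0.001 for Trans and −0.01 for Cis minus Saturated without Saturated replicate 2. *Rabggtb*, a subunit of the Rab prenyltransferase, had the only unadjusted p under 0.05 among them, at −0.14 ± 0.07 (adjusted p = 0.678) between Trans and Saturated livers. *Ggps1*, which makes geranylgeranyl diphosphate, differed by −0.22 ± 0.14 (adjusted p = 0.788), and *Fnta* and *Fntb*, the subunits of farnesyltransferase, by 0.08 ± 0.06 (adjusted p = 0.849) and 0.09 ± 0.09 (adjusted p = 0.9). The other lower genes were *Pggt1b*, a protein prenyltransferase subunit, at −0.08 ± 0.12, and *Rce1* and *Zmpste24*, proteases of prenylated proteins, at −0.03 ± 0.15 and −0.01 ± 0.05. Leaving out Saturated replicate 2 put *Fnta* at 0.04, *Rce1* at −0.06 and *Zmpste24* at 0.002.

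Of 6 measured genes that control or serve SREBP2, 4 were lower in both comparisons, with medians of −0.27 for Trans and −0.19 for Cis minus Saturated. *Scap*, the escort protein of SREBP, differed by −0.28 ± 0.07 between Trans and Saturated livers (adjusted p = 0.281), *Srebf2*, which encodes SREBP2, by −0.26 ± 0.11 (adjusted p = 0.625), and *Stard4*, a sterol carrier, by −0.32 ± 0.14 (adjusted p = 0.623). *Insig1*, which holds SCAP in the endoplasmic reticulum, differed by −0.31 ± 0.20 (adjusted p = 0.791), while *Insig2* and *Mbtps1*, the site-1 protease of SREBP, were at 0.21 ± 0.26 and 0.03 ± 0.07. For Cis minus Saturated, *Scap* was at −0.26 ± 0.07, *Srebf2* at −0.25 ± 0.11 and *Stard4* at −0.33 ± 0.14. *Insig1*, *Insig2* and *Mbtps1* were at −0.14 ± 0.20, 0.07 ± 0.26 and 0.07 ± 0.07 in that comparison. Genes of fatty acid synthesis had medians of −0.22 for Trans and −0.01 for Cis minus Saturated, or −0.37 and −0.20 without Saturated replicate 2, and 0 of the 8 were called in either fit. Among them *Elovl6*, the elongase, differed by −0.54 ± 0.31 (adjusted p = 0.743) and *Srebf1* by 0.33 ± 0.21 (adjusted p = 0.791) between Trans and Saturated livers, and *Acaca*, acetyl-CoA carboxylase, and *Scd1*, the stearoyl-CoA desaturase, differed by −0.26 ± 0.22 and 0.09 ± 0.08, or by −0.42 and 0.03 with Saturated replicate 2 left out. For Cis minus Saturated over all livers, *Srebf1* was at 0.53 ± 0.21 (adjusted p = 0.684). *Elovl6*, *Acaca* and *Scd1* were at 0.006 ± 0.31, −0.08 ± 0.22 and −0.03 ± 0.08 in that comparison. Of the ketone body genes *Bdh1*, the hydroxybutyrate dehydrogenase, differed by 0.29 ± 0.07 (adjusted p = 0.281) and *Acat1*, the mitochondrial thiolase, by 0.04 ± 0.04 (adjusted p = 0.912) between Trans and Saturated livers.

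**Figure D4:**
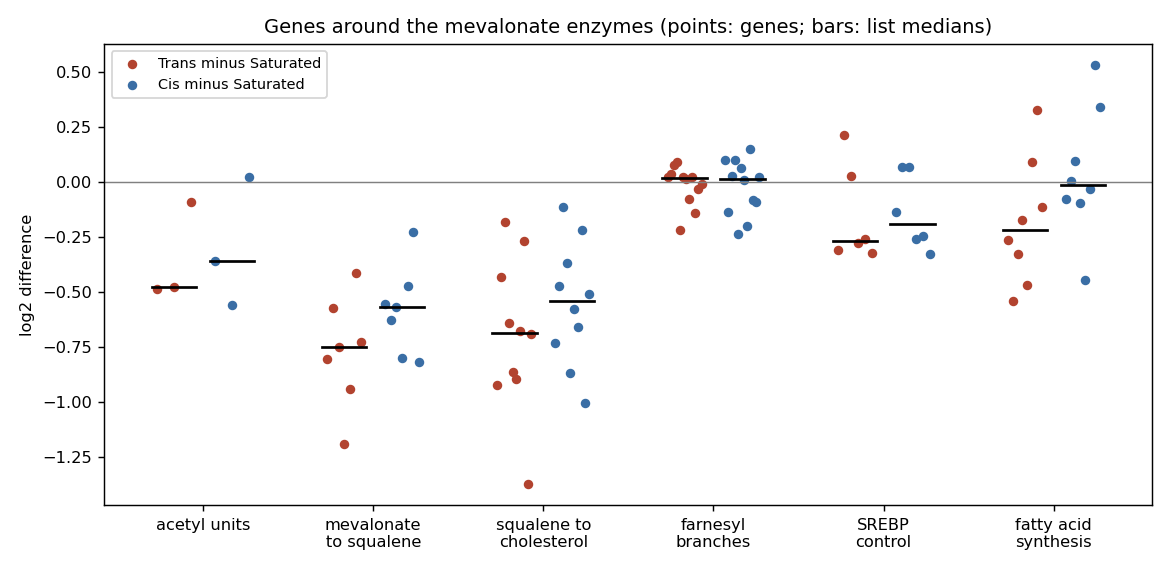
Log2 differences (y axis) for Trans minus Saturated and Cis minus Saturated of the genes in each list (x axis), from the fit of all 24 livers. Points are genes and bars are list medians; the medians of the mevalonate enzymes, −0.75 and −0.57, and of the genes from squalene to cholesterol, −0.69 and −0.54, lie below that of the farnesyl branches, 0.02.

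The genes whose pattern was most like the mean of the 7 enzymes were looked for among 18813 others over the 24 livers, by Pearson's r. The 10 highest were *Cyp51* (r = 0.969), *Rdh11* (r = 0.965), *Msmo1* (r = 0.962), *Nsdhl* (r = 0.960), *Sqle* (r = 0.956), *Lss* (r = 0.941), *Hsd17b7* (r = 0.929), *Tm7sf2* (r = 0.917), *Dhcr7* (r = 0.914) and *Sc5d* (r = 0.910). Of these, 9 belong to the list from squalene to cholesterol, and the other, *Rdh11*, encodes a retinol dehydrogenase. *Rdh11* differed by −0.83 ± 0.26 (adjusted p = 0.437) between Trans and Saturated livers. The lowest were *Gna12*, a G protein alpha subunit (r = −0.823), *Gpx1*, a glutathione peroxidase (r = −0.788), and *Tmem134* (r = −0.776). With the diet means removed, 9 of the 10 highest remained among the 10 highest. Among the 7 enzymes themselves, r to the same mean, which each is part of, was lowest for *Mvk*, at 0.780, and highest for *Fdft1*, at 0.972.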

How the data were processed

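Arrays of the type Affymetrix Mouse Gene 1.1 ST were run on liver RNA of 24 mice, 1 per mouse. The authors processed the scans by RMA, which corrects the background, equalizes the distributions of the arrays and combines the probes of a set, and the values they deposited are on the log2 scale. An array has no read depth, and precision is limited by the number of arrays. The study's methods describe probe sets built per gene, but the 35556 rows used here are those of the array's own design. By a table of platform annotation, 21218 rows had a single gene, 1881 several and 12457 none. All 7 symbols matched RefSeq. Among several probe sets of a gene, the one with the highest mean log2 value was used.

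The 3 diets were fitted to all probe sets in R 4.3.3 with limma 3.58.1 (lmFit, eBayes), two-sided, with p-values adjusted by Benjamini-Hochberg over all 35556 rows of each comparison and a threshold of 0.05, and no filter on low signal. The procedure was tested on simulated data. Tukey's post hoc test, which the study's methods name beside a paired test without tying either to the arrays, was among 9 alternatives, next to leaving out each of the 24 livers. Samples of a diet are separate mice, and the labels give no batch.

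The enzymes and lists were chosen with earlier results of these data known. Genes named are the 7 enzymes, the paralogs where measured, up to 4 genes per list with the smallest p in Trans minus Saturated, genes of opposite sign to their list, and the 10 most and 3 least like genes. Cell type and clock lists are given by medians and averages per liver, with counts and summed signals for those described further.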

Additional observations from a re-analysis of the deposited data

Results flagged for a closer look

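A liver far from the others of its diet was looked for in each of the 7 enzymes and 3 diets, 21 groups of 8 livers in all, on the log2 scale. In 4 of them the gap from the lowest liver to the next, divided by the range of the group, was above Dixon's 95% critical value for 8 samples, which chance alone passes in about 1 in 20 groups. The 21 groups are not independent, since the enzymes vary together in the same livers, so the 4 cannot be weighed against that rate. *Mvd* was at 4.635 in Cis replicate 7, where the next Cis liver was at 5.625 (ratio 0.53), and at 4.322 in Saturated replicate 2, where the next Saturated liver was at 5.98 (ratio 0.53). *Idi1* was at 6.398 in Trans replicate 4, where the next Trans liver was at 7.402 (ratio 0.556), and at 7.595 in Saturated replicate 2, where the next Saturated liver was at 8.737 (ratio 0.572). These are the same 3 livers that had the lowest mean over the 7 enzymes in their diets.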

How the results depend on the processing

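Leaving out Saturated replicate 2 moved the number of enzymes called to 2 (*Idi1* and *Fdft1*) for Trans minus Saturated and to 3 (*Pmvk*, *Idi1* and *Fdft1*) for both unsaturated diets minus Saturated, from 0 over 24 livers. Over all 24 ways of leaving out 1 liver, these counts ran from 0 to 2 and from 0 to 3, and they were 0 for Cis minus Saturated and for Trans minus Cis. The median log2 difference of the 7 enzymes then ran from −0.94 to −0.66 for Trans minus Saturated, from −0.77 to −0.47 for Cis minus Saturated, from −0.26 to −0.13 for Trans minus Cis, and from −0.84 to −0.55 for both. For Cis minus Saturated, *Mvd* moved from −0.47 to −0.77 without Saturated replicate 2 and to −0.29 without Cis replicate 7, and *Mvk* moved from −0.23 to −0.10 without Saturated replicate 3 and to −0.14 without Cis replicate 8. For both unsaturated diets, *Mvk* moved from −0.32 to −0.20 without Saturated replicate 3. *Pmvk* for Trans minus Cis ran from −0.016 to 0.15 and turned negative without Cis replicate 7, and *Fdps* ran from −0.070 to 0.15 and turned negative without Trans replicate 1, 3 or 8 or Cis replicate 7. The cause was not tested. Under the 9 other alternatives the enzymes called stayed at 0 and no difference changed sign, with Tukey's test and the fit of only the groups compared not run for the combined comparison. By Tukey's test, 5, 3 and 0 enzymes had an unadjusted p under 0.05 for Trans minus Saturated, Cis minus Saturated and Trans minus Cis, among 1180, 1011 and 947 probe sets, and 0 after adjustment. Replicate numbers are shared between the diets, and the labels state no pairing of the mice. Between livers of the same number, r was taken on a scale other than that of whole arrays, whose median r was 0.975 to 0.986. That r ran from −0.0682 to 0.0883 over 24 pairs, and 4 of 24 livers correlated best with their own number. Such values show no sign of a pairing but cannot exclude it. With a replicate block 0 enzymes were called in each comparison, with 5, 0, 0 and 2 of all probe sets called in the 4 comparisons. The median correlation between enzymes of 0.774 was 0.637 without the 2 farthest livers, chosen anew for each pair, 0.663 without Saturated replicate 2, 0.647 within Trans, 0.561 within Cis and 0.897 within Saturated livers.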
